A study of Mus musculus with 24 samples.

Results

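The genes described here are 9 genes by which B cells are recognised, Cd79a, Cd79b, Ms4a1, Pax5, Cd22, Blk, Fcrla, Cd27 and Cr2. They were chosen by name, as the rows of the count table whose gene identifier maps to these symbols, and all 9 were found among the 51138 genes of the table. All 9 had at least 10 counts over the samples and entered the tests, which covered 30564 genes. The samples were whole constructs built on granules of a ceramic, biphasic calcium phosphate (BCP), taken from pockets under the skin of the back 2 weeks after implantation, 1 sample per mouse, 24 samples in 6 groups of 4.

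All hosts were male and female Foxp3-DTR/eGFP mice of 8 to 9 weeks. In this strain Foxp3, the transcription factor of regulatory T cells (Treg), drives a receptor for diphtheria toxin, so that these cells can be removed with the toxin. BCP constructs carried no seeded cells. BCP+MSC constructs carried marrow stromal cells (MSC) from wild-type C57BL/6J mice, BCP+MSC+RvE1 constructs MSC kept for 36 hours in 10 nM resolvin E1 (RvE1), a lipid that helps to end inflammation, and BCP+MSC+Treg constructs MSC cultured with Treg for 36 hours. These Treg were sorted from spleens of Foxp3-DTR/eGFP mice and activated with antibodies before the coculture. The hosts of these 4 groups were given no toxin. The remaining 2 groups, named (dep) for depletion, carried unprimed MSC constructs and received toxin into the abdomen at 50 µg/kg, the last dose on day 10. The methods describe no further treatment for (dep)BCP+MSC, while the other, (dep)BCP+MSC+RvE1inj or the injected group, also got 1 µM RvE1 injected daily at the construct. As no vehicle injection is stated, RvE1 and the injection itself cannot be told apart. The libraries hold RNA of the seeded cells and of every host cell in the construct, and fewer B cells cannot be told apart from less RNA per B cell.

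B cells recognise antigen through a membrane immunoglobulin that signals through the paired chains encoded by Cd79a and Cd79b. The receptor calls on Src family kinases such as Blk, is restrained by Cd22 and is boosted by the complement receptor encoded by Cr2. Pax5 is the transcription factor that holds cells in the B lineage, and it is switched off when a B cell becomes an antibody-secreting plasma cell. B cells are sparse in normal tissue under the skin.

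Promoters were available for 6 of the 9 members, from RefSeq on GRCm38.p6, each from 250 bases before to 50 bases after a start in RefSeq. Such a start can differ from the end of the gene's span given below, and the Cd22 window lies inside that gene's span. Cd79a and Pax5 are shown as members that were higher in the injected group, and Cd22 as the member whose levels went their own way. Capitals mark matches, on either strand, to 3 elements known from B cell genes: the palindrome CCCNNGGG of EBF1, the ETS element GGAAGT and the octamer ATGCAAAT.
Cd79a (chr7:24897247-24897546, + strand): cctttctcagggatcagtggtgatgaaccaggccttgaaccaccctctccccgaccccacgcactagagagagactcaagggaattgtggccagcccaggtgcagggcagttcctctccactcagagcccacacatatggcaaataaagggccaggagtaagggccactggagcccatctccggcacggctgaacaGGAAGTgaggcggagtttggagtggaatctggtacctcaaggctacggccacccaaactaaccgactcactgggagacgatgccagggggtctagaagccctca
Pax5 (chr4:44710645-44710944, - strand): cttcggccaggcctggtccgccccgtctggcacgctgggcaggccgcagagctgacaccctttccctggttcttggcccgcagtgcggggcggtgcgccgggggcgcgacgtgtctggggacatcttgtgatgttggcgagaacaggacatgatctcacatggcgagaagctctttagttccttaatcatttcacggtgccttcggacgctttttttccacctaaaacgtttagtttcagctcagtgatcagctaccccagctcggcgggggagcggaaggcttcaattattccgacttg
Cd22 (chr7:30878979-30879278, - strand): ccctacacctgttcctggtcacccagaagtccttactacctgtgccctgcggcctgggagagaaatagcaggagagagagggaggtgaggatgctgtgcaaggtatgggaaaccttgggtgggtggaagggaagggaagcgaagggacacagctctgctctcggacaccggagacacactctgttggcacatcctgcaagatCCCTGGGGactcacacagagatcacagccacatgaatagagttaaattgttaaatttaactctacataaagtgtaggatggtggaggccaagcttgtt
The Cd79a window held the ETS element, which starts 54 bases before the RefSeq start and was found in 23.8% of the 32851 mouse promoters of the same length. The Cd22 window held the palindrome, present in 13.7% of those promoters. In the Pax5 window none of these letters occurred, and the octamer, at 1.74% of all promoters, was in none of the 6 windows. The other matches were the palindrome in Cd27 and the ETS element in Cr2. The 3 elements share no letters of a match in these windows.

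Total counts ran from 8482701 in (dep)BCP+MSC 1 to 144417743 in BCP+MSC+RvE1 4, a 17-fold difference. In the (dep)BCP+MSC group the table numbers its columns 1, 2, 4 and 5, and these numbers name its mice here. Levels are in CPM, counts relative to the library total, scaled by TMM for composition. A count of 0 was read as up to 3 counts, which was 0.0223 CPM in the deepest sample and 0.299 CPM in the shallowest, and this covers counting error only. (dep)BCP+MSC 1 also stood apart by its skin genes, at a summed 527 CPM against 19.4 to 104 CPM in every other sample. Foxp3 mRNA was at 0.356 to 2.14 CPM in the samples without toxin and at 0.298 to 1.69 CPM in those with toxin, so the ranges overlap. Its counts were as low as 4 in the injected group. The study checked depletion by flow cytometry of lymph nodes and spleen, which is another tissue and another measure.

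Per kilobase of exon, Cd22 had the highest mean level over the 24 samples, 6.04 CPM per kb, next to Cd79b at 5.9 CPM per kb and Cd79a at 3.24 CPM per kb. Fcrla and Cd27 followed at 1.15 and 1.09 CPM per kb. Blk, Ms4a1 and Pax5, at 0.311, 0.21 and 0.16 CPM per kb, and Cr2, at 0.0303 CPM per kb, were low. The ranges over samples, such as 2.84 to 9.35 CPM per kb for Cd22 and 1.64 to 15.6 CPM per kb for Cd79b, overlapped between every pair of neighbours in this order. Cr2 had 3 counts or fewer in 7 of 24 samples, Blk in 3, Ms4a1 in 1 and Pax5 in 1, so at this depth their differences are the least precise.

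**Figure D1:**
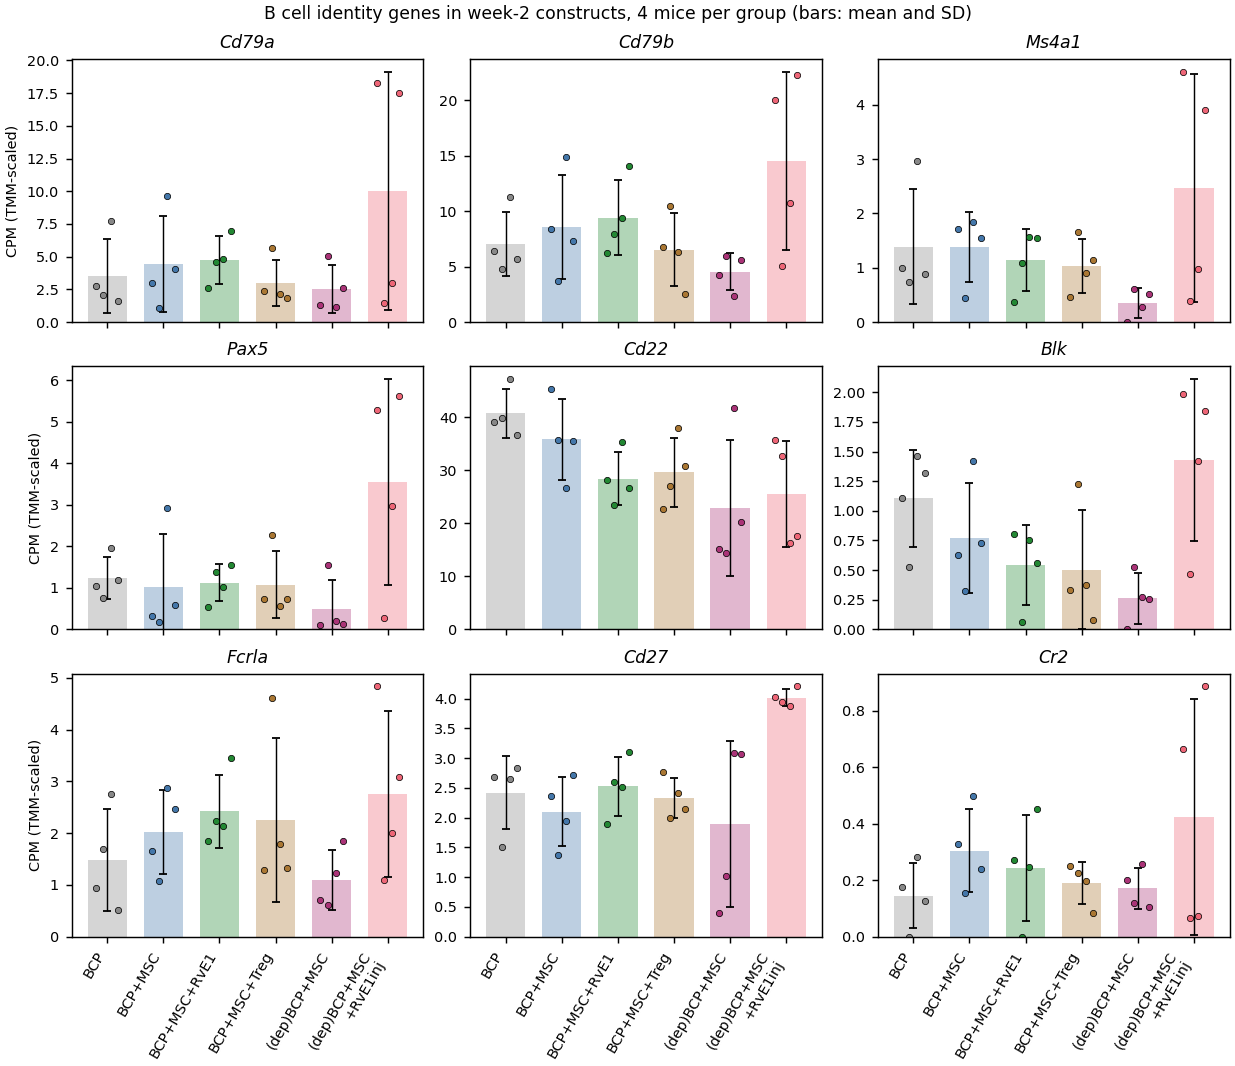
Level of each gene in TMM-scaled CPM (vertical axes, starting at 0) in the 6 groups (horizontal axes). Points are mice, bars the mean and error bars the SD of 4 mice. In the injected group Cd79a lies at 18.3 and 17.5 CPM in 2 mice and at 1.43 and 2.98 CPM in the others, while Cd22 is higher in mice 1 and 2 than in mice 3 and 4.

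The question put to the toxin groups was whether local RvE1 changed the B cell signal of constructs in Treg-depleted mice. All 9 members had a log2 fold change above 0 in the injected group against (dep)BCP+MSC, from 0.16 to 2.78 with a median of 1.67, while the median of all genes tested was 0.00. At an unadjusted p under 0.05 with a log2 fold change over 1 in edgeR's quasi-likelihood test, 7 of 9 were higher, and 2.62% of all genes passed the same rule. After Benjamini-Hochberg adjustment 0 of 9 passed, at an adjusted p of 0.668 or more, and 0% of all genes did. DESeq2 called 7 members unadjusted and 0 adjusted. Injected mice 1 and 4 were above every mouse of (dep)BCP+MSC for 8 and 8 of the 9 members, mouse 3 for 6 and mouse 2 for 1.

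The chains of the receptor are given first. Cd79a (chr7:24897381-24902197, GRCm38) was at 18.3, 1.43, 2.98 and 17.5 CPM in injected mice 1 to 4 and at 1.30, 5.06, 1.18 and 2.60 CPM in (dep)BCP+MSC 1, 2, 4 and 5. The groups overlap, since injected mice 2 and 3 lie inside the range of (dep)BCP+MSC and mice 1 and 4 lie above it. The log2 fold change was 1.98 ± 0.75 (SE, n = 4 and 4; edgeR p = 0.0153), and the exact permutation test over 70 arrangements gave p = 0.2. Without injected mouse 1 the edgeR p was 0.0574 and without mouse 4 it was 0.0524, so the call rests on both.

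Cd79b (chr11:106311341-106314762) was at 20.0, 5.10, 10.7 and 22.3 CPM in the injected mice against 4.29, 5.97, 2.35 and 5.63 CPM. Here 3 of 4 injected mice exceeded every mouse of (dep)BCP+MSC, and mouse 2 did not. Its log2 fold change of 1.67 ± 0.47 (SE; edgeR p = 0.0017) had an exact permutation p of 0.0857. The smallest p this permutation test allows is 0.0286.

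Ms4a1 (chr19:11249675-11266241), which encodes the B cell surface protein CD20, was at 4.61, 0.39, 0.97 and 3.91 CPM in the injected mice. In (dep)BCP+MSC it had 0 counts in mouse 1, which allows up to 0.299 CPM, and 0.602, 0.282 and 0.525 CPM in mice 2, 4 and 5. Injected mouse 2 again sat among the controls and the other 3 above them. For Ms4a1 the log2 fold change was 2.70 ± 0.76 (SE; edgeR p = 0.00165, exact permutation p = 0.0857). The mean levels, 2.47 and 0.352 CPM, differed 7.01-fold.

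Pax5 (chr4:44524757-44710487) had the highest fold change of the 9 members. Its levels were 5.29, 0.283, 2.98 and 5.63 CPM in the injected mice and 0.0997, 1.54, 0.20 and 0.126 CPM in (dep)BCP+MSC, where the first value is 1 count. In 3 of 4 injected mice it exceeded every control, and in (dep)BCP+MSC mouse 2 was far above the other 3. For Pax5 the log2 fold change was 2.78 ± 0.92 (SE; edgeR p = 0.00592, exact permutation p = 0.0571). Without (dep)BCP+MSC 2 it was 4.51.

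Blk (chr14:63372837-63417187) was at 1.99, 0.471, 1.42 and 1.84 CPM in the injected mice and at 0 counts, 0.53, 0.27 and 0.252 CPM in (dep)BCP+MSC. Only injected mouse 2 fell inside the control range. Its log2 fold change was 2.30 ± 0.75 (SE; edgeR p = 0.00516, exact permutation p = 0.0571). Fcrla (chr1:170917576-170927583), which encodes an intracellular Fc receptor-like protein of B cells, was at 4.84, 1.10, 2.01 and 3.08 CPM against 0.698, 0.602, 1.23 and 1.85 CPM. The difference of 1.31 ± 0.55 on the log2 scale (SE; edgeR p = 0.0246, exact permutation p = 0.114) was lost without injected mouse 1 (p = 0.132), (dep)BCP+MSC 1 (p = 0.063) or (dep)BCP+MSC 2 (p = 0.0752).

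Cd27 (chr6:125232622-125237010), a costimulatory receptor that T cells and NK cells carry as well as B cells, was the one member whose groups did not overlap. It was at 4.03, 3.94, 3.88 and 4.21 CPM in the injected mice and at 0.399, 1.01, 3.08 and 3.07 CPM in (dep)BCP+MSC. The injected mice were thus close together, at 4.01 ± 0.141 CPM (SD, n = 4), and mice 1 and 4 did not stand out from mice 2 and 3. The log2 fold change was 1.05 ± 0.42 (SE; edgeR p = 0.0192, exact permutation p = 0.0286). Groups did not overlap, with the injected group higher, for 1 of 9 members and for 1.3% of all genes. The call was lost without (dep)BCP+MSC 1 or 2, the controls with the lowest values. Cd27 overlaps Vamp1 on the opposite strand and Mir8113 on the same one, Ms4a1, Pax5, Cd22 and Fcrla also overlap other genes, and reads on exons of both genes were left out of the counts.

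The 2 remaining members did not pass. Cr2 (chr1:195136811-195176716) was at 0.666, 0.0673, 0.0746 and 0.888 CPM in the injected mice and at 0.199, 0.12, 0.259 and 0.105 CPM in (dep)BCP+MSC, with 1 to 57 counts behind the injected values. Mice 1 and 4 were above all controls and mice 2 and 3 below them, and the log2 fold change was 1.30 ± 0.89 (SE; edgeR p = 0.157, exact permutation p = 0.514). Cd22 (chr7:30865402-30880342) was at 35.7, 32.6, 16.2 and 17.6 CPM against 15.1, 14.3, 41.7 and 20.3 CPM. The log2 fold change of Cd22 was 0.16 ± 0.29 (SE; edgeR p = 0.593, exact permutation p = 0.743), and the injected mouse 4, high for the other members, was among the lower for Cd22.

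**Figure D2:**
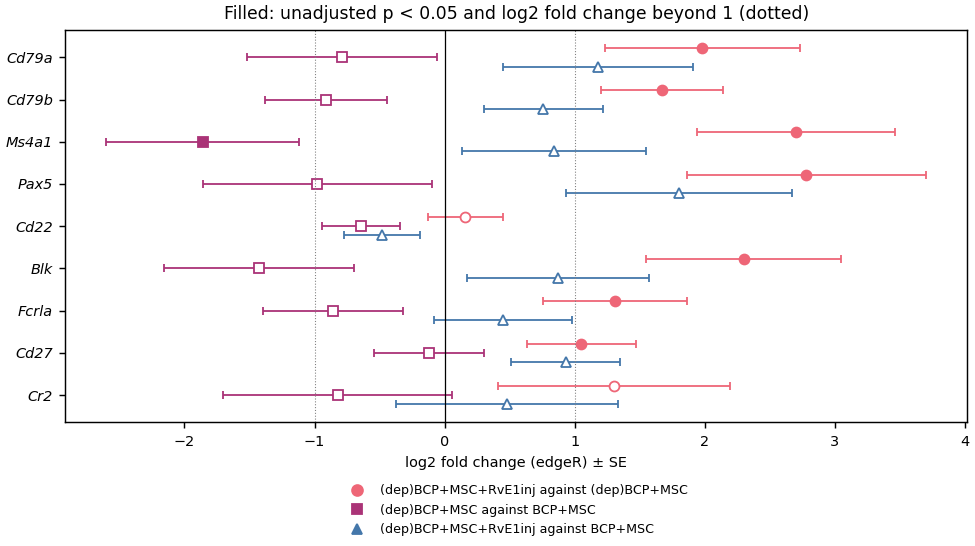
Log2 fold change of each gene ± SE from edgeR (horizontal axis) in 3 comparisons of the toxin groups and BCP+MSC, with filled symbols where the unadjusted p was under 0.05 and the log2 fold change beyond 1. The injected group against (dep)BCP+MSC has 7 filled symbols, (dep)BCP+MSC against BCP+MSC has 1 and the injected group against BCP+MSC has none.

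Toxin-treated constructs without injection were compared with BCP+MSC, the same construct in mice without toxin. All 9 members had a log2 fold change below 0, from -1.86 to -0.12 with a median of -0.86, against -0.04 for all genes. Ms4a1 passed the unadjusted threshold, and 6.53% of all genes were lower by that rule. Ms4a1 was at 1.72, 0.443, 1.85 and 1.54 CPM in BCP+MSC, and its log2 fold change was -1.86 ± 0.74 (SE; edgeR p = 0.0193, adjusted p = 0.156, exact permutation p = 0.0857). BCP+MSC 2 overlaps (dep)BCP+MSC and the other 3 mice lie above all of it. Without (dep)BCP+MSC 4 Ms4a1 no longer passed and Cd22 did, also by the adjusted threshold.

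The count in this comparison depended on 2 single mice. Without BCP+MSC 2 or without (dep)BCP+MSC 2 it was 3 of 9. Blk, at 0.775 ± 0.466 CPM in BCP+MSC and 0.263 ± 0.217 CPM in (dep)BCP+MSC (SD, n = 4), had a log2 fold change of -1.43 ± 0.73 (SE; edgeR p = 0.0624, exact permutation p = 0.0571). Cd22, at 35.8 ± 7.55 and 22.9 ± 12.9 CPM (SD, n = 4), had a log2 fold change of -0.64 ± 0.30 (SE; edgeR p = 0.0394, exact permutation p = 0.114), under the fold limit. The adjusted threshold was passed by 0 of 9 members and 3.14% of all genes, and DESeq2 called 2 members unadjusted and 0 adjusted.

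Set against BCP+MSC, the injected group had 0 of 9 members past the unadjusted threshold, while 9.45% of all genes passed in either direction. The log2 fold changes ran from -0.48 for Cd22 to 1.80 for Pax5, with a median of 0.84. Pax5, at 3.55 ± 2.47 CPM in the injected group and 1.01 ± 1.29 CPM in BCP+MSC (SD, n = 4), had an edgeR p of 0.0503. Cd27 was the 1 member at an unadjusted p under 0.05, with a log2 fold change of 0.93 ± 0.42 (SE; edgeR p = 0.0346, exact permutation p = 0.0286), and its groups did not overlap, which held with the injected group higher for 2.77% of all genes. DESeq2 called 1 member unadjusted and 0 adjusted. Without BCP+MSC 3 or without injected mouse 2 the edgeR count was 3, and without BCP+MSC 4 it was 1.

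The 3 comparisons above share samples. Cd79a was at a mean of 4.43 ± 3.66 CPM in BCP+MSC, 2.53 ± 1.80 CPM in (dep)BCP+MSC and 10.1 ± 9.10 CPM in the injected group (SD, n = 4). For Cd79b the means were 8.58 ± 4.69, 4.56 ± 1.64 and 14.5 ± 8.03 CPM (SD, n = 4). For both chains the SD of the injected group was above that of the groups it was compared with. For Cd27 it was below them, at 0.141 CPM against 0.58 CPM in BCP+MSC and 1.39 CPM in (dep)BCP+MSC, and for Cd22 it lay between them.

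The groups without toxin asked whether MSC, or their priming, changed the same genes. In BCP+MSC, BCP+MSC+RvE1 and BCP+MSC+Treg against BCP, and in the primed groups against BCP+MSC, 0 of 9 members passed in any of the 5 comparisons by edgeR or DESeq2, and 0 had an unadjusted p under 0.05. The share of all genes that passed in either direction was 4.32%, 8.54% and 5.85% against BCP, and 2.5% and 2.56% against BCP+MSC. Means of Cd79a in the 4 groups without toxin lay between 2.99 and 4.75 CPM, with SDs of 1.78 to 3.66 CPM, and those of Ms4a1 between 1.04 and 1.39 CPM. Differences among these 4 groups did not exceed the spread between mice for Cd79a, Cd79b, Ms4a1, Pax5, Fcrla and Cd27.

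The groups took another order for Cd22. It was at 36.6 to 47.2 CPM in BCP, the highest group, at 26.7 to 45.2 CPM in BCP+MSC, and at 23.5 to 35.3 CPM in BCP+MSC+RvE1, which did not overlap BCP. The log2 fold change between BCP+MSC+RvE1 and BCP was -0.52 ± 0.29 (SE; edgeR p = 0.091, exact permutation p = 0.0286). Of all genes, 5.8% were lower in BCP+MSC+RvE1 without overlap. Blk had its higher means in BCP, at 1.11 ± 0.41 CPM, and the injected group, at 1.43 ± 0.682 CPM (SD, n = 4).

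RvE1 was given in different ways, in the priming medium at 10 nM or by injection at 1 µM into toxin-treated mice, so the effects are set side by side. Against BCP+MSC, priming gave log2 fold changes of -0.46 to 0.27 over the 9 members, and injection against (dep)BCP+MSC gave 0.16 to 2.78. The contrast of the 2 effects in the same model was above 0 for 9 of 9 members, and 4 passed unadjusted, where 2.02% of all genes did: Ms4a1 at 2.98 ± 1.03, Blk at 2.76 ± 1.02, Pax5 at 2.64 ± 1.24 and Cd79b at 1.53 ± 0.66 (log2, SE). Their unadjusted edgeR p-values were 0.00797, 0.0122, 0.0437 and 0.0276, and each adjusted p was 1. Dose, route, toxin and construct differ between the 2 effects together and cannot be told apart.

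**Figure D3:**
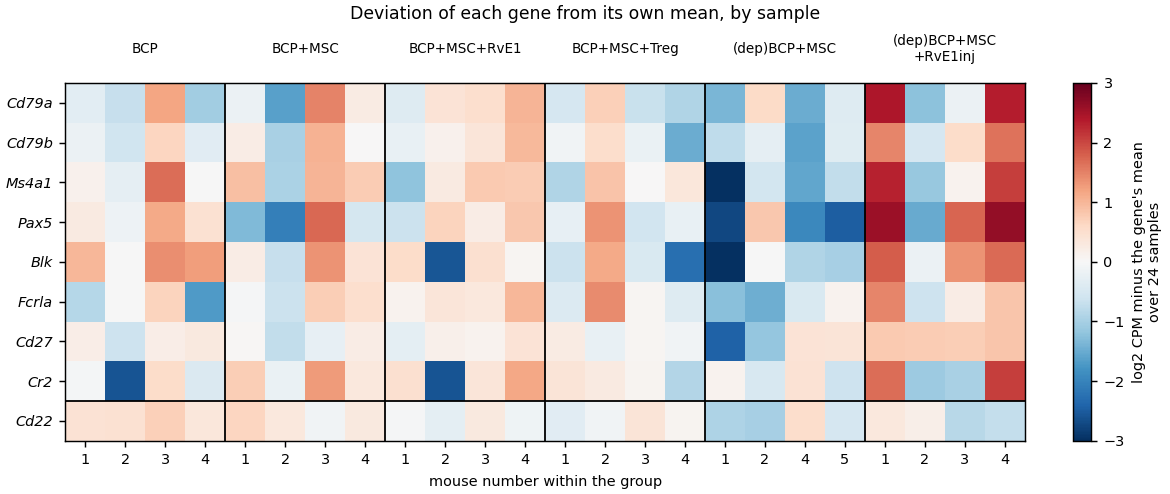
Log2 CPM of each gene minus its own mean over 24 samples (colour, red above and blue below) for every mouse (columns, by group). Injected mice 1 and 4 are red for the 8 genes above the line and (dep)BCP+MSC 1 is mostly blue. Cd22 is also below its mean in (dep)BCP+MSC 1, but it is above its mean in injected mouse 1 and below it in mouse 4.

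Across the 24 samples most members went up and down together, Cd27 and Cr2 less and Cd22 least. The correlation of each member's log2 CPM with the mean of the other 8 was r = 0.86 for Ms4a1, 0.84 for Cd79a and for Cd79b, 0.77 for Pax5, 0.75 for Blk, 0.68 for Fcrla, 0.56 for Cd27 and 0.46 for Cr2. By rank, the rho was 0.54 to 0.92 for 7 members, 0.29 for Cd27 and 0.02 for Cd22, for which r was 0.10. The points share their library, and shallow libraries measure rare genes less precisely, so these are descriptions. Of 9 members, injected mouse 1 was among the 3 highest of 24 samples for 8, and injected mouse 4 for 7. (dep)BCP+MSC 1 was among the 3 lowest for 7.

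Of 111 other listed genes at a mean of 0.5 CPM or more, those most like the mean of the 9 members over 24 samples were Hbb-bs (r = 0.75), Hbb-bt and Pou2af1 (each r = 0.73), Spib (r = 0.69), Jchain (r = 0.67), Ighd (r = 0.66), Tnfrsf17 (r = 0.65) and Hba-a1 (r = 0.65). They comprise 3 haemoglobin genes, 3 B lineage genes and 2 plasma cell genes. Leaving out the 2 samples farthest from the median, (dep)BCP+MSC 1 and injected mouse 1, changed this order. Over the 22 samples left, Tnfrsf13c (r = 0.65), Ighg1 (r = 0.63) and Pou2af1 (r = 0.62) were highest. The haemoglobin genes fell to 0.53 (Hbb-bs), 0.48 (Hbb-bt) and 0.46 (Hba-a1). The B lineage and plasma cell genes named first fell as well, to 0.62 (Pou2af1), 0.57 (Ighd), 0.56 (Spib), 0.53 (Jchain) and 0.52 (Tnfrsf17). The genes most like Cd22, looked up after its values were seen, were Lyn (r = 0.85), Malt1 and Syk (each r = 0.84), signalling genes shared by B cells and myeloid cells, and the macrophage marker Adgre1 reached r = 0.82. The part of other cell types in the Cd22 counts was not tested.

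Other B lineage genes were higher in the injected group too. Of 20, 19 had a log2 fold change above 0 against (dep)BCP+MSC, and the median was 1.01. By edgeR 0 passed adjusted and 7 unadjusted, where 2.62% of all genes were higher unadjusted. The 7 had exact permutation p-values from 0.0571 (Siglecg) to 0.629 (Ighd). They were Fcmr, a receptor for IgM (3.27, from 0 to 7 counts per control library), Vpreb3 (2.23), Tnfrsf13c, the receptor for the survival factor BAFF (1.64), Cxcr5, the receptor that guides B cells to follicles (1.58), Spib, an ETS factor (1.51), Ighd, the IgD heavy chain (1.47), and Siglecg, an inhibitory receptor (1.16, all log2). The 2 most abundant of this list did not pass: Ighm, the IgM heavy chain, at 1914 and 919 CPM on average, with a log2 fold change of 1.06 ± 1.14 (SE; edgeR p = 0.366, exact permutation p = 0.543), and Cd37, at 99.8 and 86.5 CPM, with 0.21 ± 0.21 (SE; edgeR p = 0.34, exact permutation p = 0.543). Against BCP+MSC, (dep)BCP+MSC had 7 of the 20 lower, where 6.53% of all genes were. Of these 3 passed the adjusted threshold, which 3.14% of all genes passed in either direction. The injected group against BCP+MSC had 3 higher and 3 lower, with a median of 0.05, and 9.45% of all genes passed in either direction.

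Of the genes of the receptor's signalling pathway, most of them also used by myeloid cells, the most abundant were Syk, the kinase that the receptor chains recruit, and Inpp5d, a phosphatase that restrains the signal. Their log2 fold changes in the injected group against (dep)BCP+MSC were -0.02 ± 0.22 and 0.10 ± 0.19 (SE). The 4 measured genes of B cell precursors, of 6 listed, were at a summed 0 to 0.714 CPM in the toxin groups and none passed. Dntt and Vpreb1, the most abundant, were at -0.22 and 1.04 (log2). Of 6 germinal centre genes none passed, with a median of -0.01, and the most abundant, S1pr2 and Bcl6, were at 0.30 and -0.21 (log2).

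Of 14 plasma cell genes 13 had a log2 fold change above 0 in the injected group against (dep)BCP+MSC, with a median of 1.16. Unadjusted, 2 passed, where 2.62% of all genes were higher. The 2 were the IgG heavy chains Ighg1, at 4.04 ± 1.65, and Ighg2c, at 1.75 ± 0.72 (log2, SE). Their exact permutation p-values were 0.229 and 0.4. Igkc, the kappa light chain and the most abundant of the list, was at a mean of 1572 CPM and 540 CPM, with a log2 fold change of 1.54 ± 1.14 (SE; edgeR p = 0.193, exact permutation p = 0.257), and Sdc1, which encodes the plasma cell marker CD138 and is also made by other cells, was at 0.21 (log2). The summed level of the list was 7510 and 4735 CPM in injected mice 1 and 4 and 1202 and 915 CPM in mice 2 and 3. It was 918 to 2874 CPM in (dep)BCP+MSC, so the same mice were high as for the members.

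Of 8 factors that draw B cells or keep them alive, 1 was higher in the injected group, where 2.62% of all genes were. It was Ltb, a lymphotoxin chain, at 1.32 ± 0.59 (log2, SE; edgeR p = 0.0346, exact permutation p = 0.0857). Cxcl13, the chemokine that Cxcr5 binds, was at 14.3 to 73.7 CPM in the injected group and 35.1 to 94.4 CPM in (dep)BCP+MSC, with a log2 fold change of -0.55 ± 0.79 (SE; edgeR p = 0.498, exact permutation p = 0.314). In BCP+MSC it was at 0.183 to 10.8 CPM, below both toxin groups. Cxcl12, the most abundant of the list, was at 0.18 (log2). Of 6 genes of lymph node stroma and high endothelial venules, where Ccl21a was at 0 in both toxin groups, 1 was lower in the injected group, Glycam1, at -2.82 (log2), and 2.5% of all genes were lower by that rule.

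**Figure D4:**
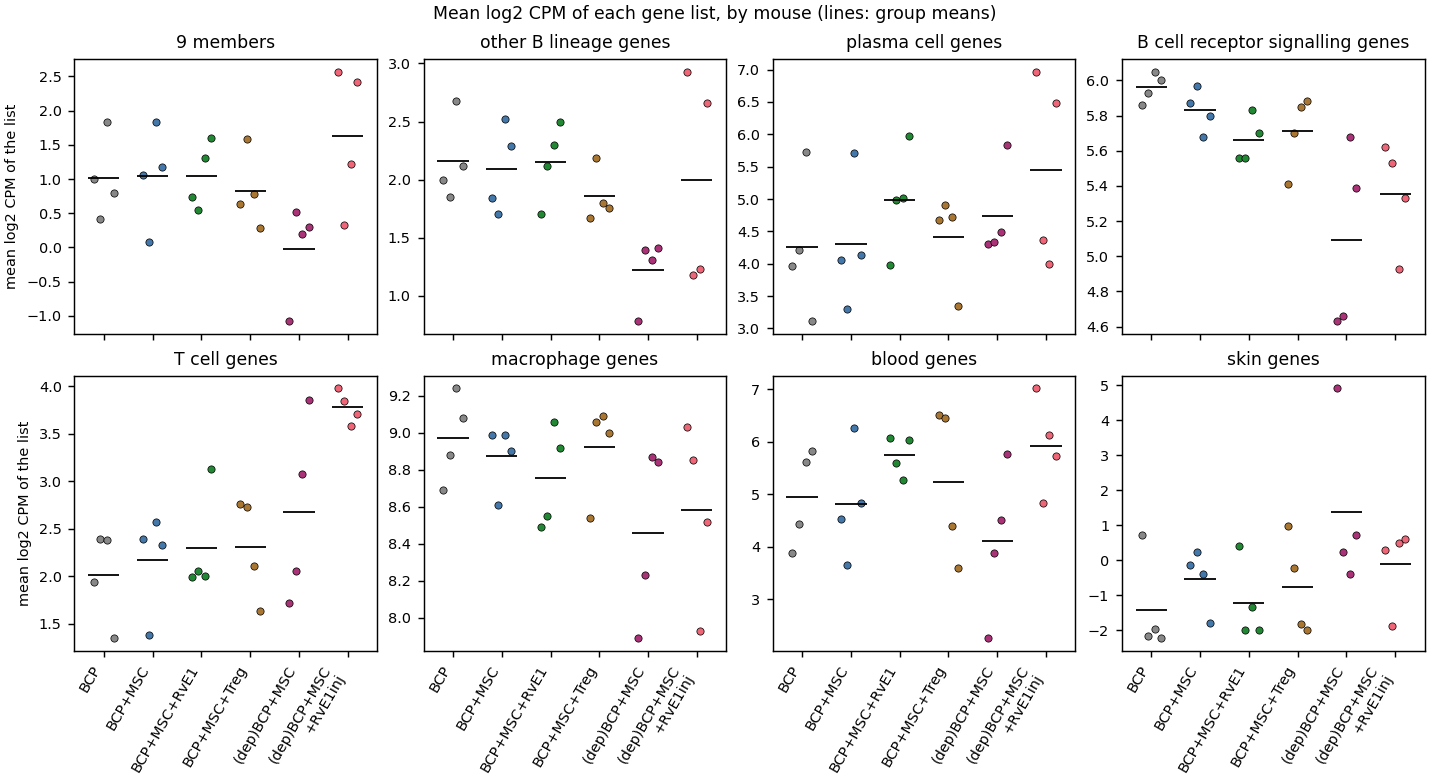
Mean log2 CPM (vertical axes) of the 9 genes and of 7 other lists in each mouse (points) of the 6 groups (horizontal axes), with lines at group means. The 4 injected mice lie together for T cell genes and spread for the 9 genes, the other B lineage genes and the plasma cell genes.

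Markers of other tissue were followed beside the members. All 13 T cell genes had a log2 fold change above 0 in the injected group against (dep)BCP+MSC, with a median of 0.84. Unadjusted, 3 passed, Cd8b1 (1.49), Trbc2 (1.36) and Lat (1.18), where 2.62% of all genes were higher. Lck, the most abundant after Lat, was at 0.85 ± 0.37 (log2, SE; edgeR p = 0.0294, exact permutation p = 0.0857). Their summed level was 192 to 234 CPM in all 4 injected mice and 50.5, 69.2, 125 and 210 CPM in (dep)BCP+MSC 1, 2, 4 and 5. Injected mouse 2, low for most members, was thus not low for T cell genes.

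Blood genes were also higher: 5 of 5 had a log2 fold change above 0, with a median of 1.58. Hbb-bt passed unadjusted at 1.58 ± 0.74 (SE; edgeR p = 0.0473, exact permutation p = 0.114), where 2.62% of all genes were higher. The blood genes summed to 1172, 256, 715 and 443 CPM in the injected mice and 36.4, 135, 203 and 487 CPM in (dep)BCP+MSC. Hbb-bs and Hba-a1, the most abundant, were at 1.48 ± 0.75 and 1.63 ± 0.82 (log2, SE). Injected mouse 2 was lowest of its group for blood genes and for most members. Mouse 4, high for most members, was below mouse 3 and (dep)BCP+MSC 5 for blood genes. The part of blood left in the construct in the members' difference was not tested.

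The 15 skeletal muscle genes summed to 8208 and 11334 CPM in injected mice 1 and 4 and to 31234 and 37872 CPM in mice 2 and 3, against 26362 to 41364 CPM in (dep)BCP+MSC, and 1 was lower, Myh1, at -1.86 (log2). The most abundant, Acta1 and Myh4, were at -0.57 and -0.83. Of 10 skin genes 5 were lower, Lor, Krt1, Krt10, Krtdap and Sbsn, where 2.5% of all genes were lower unadjusted. Sbsn, the most abundant, was at -1.09 and Krt10 at -4.07 (log2). Krt5, the next most abundant, was at -0.53, and (dep)BCP+MSC 1 held the high skin level given above. Without that mouse 5 of 9 members passed in the injected group. The part of muscle and skin in the members' difference was not tested.

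Macrophage genes, at a summed 2853 to 6647 CPM in the injected group and 3320 to 5919 CPM in (dep)BCP+MSC, had a median log2 fold change of 0.12, and 0 of 8 passed by edgeR. Their most abundant genes, Lyz2 and Cd68, were at 0.06 and -0.12 (log2). Of 5 genes of plasmacytoid dendritic cells, which share some B lineage transcripts, 0 passed, with a median of -0.25. Siglech, their defining marker, was at 0.558 and 0.467 CPM on average, and Cox6a2, the most abundant of the list and also a muscle gene, at 131 and 178 CPM.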

How the data were processed

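RNA of whole constructs was measured in 24 samples, 1 per mouse, in 6 groups of 4 taken from the sample labels. Stranded mRNA libraries were read from both ends by the authors, who aligned the reads with HISAT2 2.0.5 and counted them on exons with featureCounts 1.5.2 and GENCODE M13. The deposited values are raw counts per gene, without normalization. The recorded command has no strand option, so a gene and its antisense partner are not separated, and it lists 28 alignment files, 4 of them without a column of counts. All 24 columns were used. Of 51138 identifiers, 50376 matched a symbol in GENCODE M21, which also gave the overlaps.

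Tests on the counts ran in R 4.3.3 with edgeR 4.0.16. A minimum of 10 counts over all samples kept the genes tested, 30564 of 39183 with any count. A single quasi-likelihood fit with TMM and robust dispersions covered the 6 groups, for 8 comparisons and the contrast of the RvE1 effects, with Benjamini-Hochberg adjustment over all genes. The thresholds were an unadjusted or an adjusted p under 0.05 with a log2 fold change beyond 1, both named by the study. Log2 CPM used a prior count of 2. Exact permutation tests were two-sided, over 70 arrangements. The fit was tested on simulated data. Alternatives were RLE normalization, filterByExpr, no filter, edgeR on the compared groups only, DESeq2 1.42.0, a replicate block and each animal left out.

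All 9 genes are named. Of the other 13 lists, the genes named are those past the unadjusted threshold in the injected group against (dep)BCP+MSC and the 2 of highest mean CPM, and the 8 most like the members. The genes and lists were chosen with earlier results of these data known. Depth limits precision, as the total counts given above differ 17-fold. Mice are the replicates, and the (dep)BCP+MSC columns numbered 4 and 5 could not be matched to a sample number. Tables were handled in Python with pandas 2.3.3 and scipy, and figures drawn with matplotlib. Counts of calls over the genes of receptor signalling are not reported here.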

Additional observations from a re-analysis of the deposited data

Results flagged for a closer look

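In 7 of the 54 sets of 4 mice, formed by the 9 genes and 6 groups, 1 mouse lay far from the other 3 by Dixon's test on CPM. That test flags about 1 in 20 sets by chance only where values are normally distributed. CPM without a log are often skewed upward, so 7 cannot be set against that rate, and log2 CPM were not tested this way. BCP+MSC+Treg 2 was high for Cd79a, at 5.63 CPM against 1.81 to 2.39 CPM, for Pax5, at 2.27 CPM against 0.574 to 0.74 CPM, and for Fcrla, at 4.61 CPM against 1.29 to 1.79 CPM. BCP 3 was high for Ms4a1, at 2.96 CPM against 0.731 to 0.991 CPM, and BCP 2 low for Cd27, at 1.5 CPM against 2.65 to 2.83 CPM. BCP+MSC 3 was high for Pax5, at 2.93 CPM against 0.183 to 0.594 CPM, and (dep)BCP+MSC 2 for the same gene, at 1.54 CPM against 0.0997 to 0.20 CPM. No set of the injected group, where mice 1 and 4 were both high, stood out by this test.

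For 4 genes the effect of injected RvE1 in toxin-treated mice differed from that of priming at an unadjusted edgeR p under 0.05, each with an adjusted p of 1. The differences on the log2 scale were 2.98 for Ms4a1, 2.76 for Blk, 2.64 for Pax5 and 1.53 for Cd79b. For each of these genes 3 of 4 injected mice were above every mouse of (dep)BCP+MSC.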

How the results depend on the processing

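In the injected group against (dep)BCP+MSC the count of 7 members was 6 or 7 with RLE normalization, filterByExpr, no filter, DESeq2 and edgeR on the 2 groups only, and 5 to 7 with each animal left out. With the replicate number as a block it was 3 (Ms4a1, Fcrla and Cd27, of which Cd27 passed the adjusted threshold at a p of 0.0248). The block raised the calls over all 30564 genes too. Unadjusted, 1559 genes were higher with it, against 802 in the main fit. Past the adjusted threshold, 230 were higher and 102 lower with it, against 0 and 0. The block used numbers of different animals, without the (dep)BCP+MSC columns 4 and 5. Same-numbered samples did not deviate together, with a mean correlation of -0.001, and 7 of 22 samples correlated best with their own number, so the numbers do not pair the mice. With the block, (dep)BCP+MSC against BCP+MSC had 2 members, of which Cd22 passed the adjusted threshold, as it did without (dep)BCP+MSC 4, and the contrast of RvE1 effects 2. For (dep)BCP+MSC against BCP+MSC, DESeq2 gave 2 in place of 1, and leaving out an animal 1 to 3. For the injected group against BCP+MSC, RLE normalization, filterByExpr, DESeq2 and the block each gave 1 in place of 0, and leaving out an animal 0 to 3. The contrast of RvE1 effects gave 2 to 5 with each animal left out (2 without BCP+MSC 3, BCP+MSC+RvE1 1, (dep)BCP+MSC 4, or injected mouse 1 or 4). BCP+MSC+Treg against BCP gave 0 to 1, the 1 being Blk without BCP+MSC+Treg 2. In the other comparisons without toxin the count stayed 0 under every alternative. In the injected group against (dep)BCP+MSC the log2 fold change of Cd22 ranged from -0.03 to 0.63 with each animal left out, and was -0.03 without injected mouse 1 and -0.01 without (dep)BCP+MSC 2. No other member changed sign in that comparison under these alternatives, and fold changes of single members in the other comparisons were not followed through them. The shallowest library, (dep)BCP+MSC 1, limits Ms4a1, Blk and Pax5, with 0, 0 and 1 counts.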

Other observations

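Outside the injected group, the mean log2 CPM of the 8 members other than Cd22 was highest in BCP+MSC 3 (1.48), BCP 3 (1.36), BCP+MSC+RvE1 4 (1.20) and BCP+MSC+Treg 2 (1.19), 1 mouse in each of the 4 groups without toxin. In the injected group mice 1 and 4 were at 2.25 and 2.20, mouse 3 at 0.87 and mouse 2 at -0.25. The lowest of all 24 samples was (dep)BCP+MSC 1, at -1.70.

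Plasma cell genes were also highest of their group in 3 of these 4 mice, with sums of 4607 CPM (BCP+MSC 3), 2692 CPM (BCP 3) and 4709 CPM (BCP+MSC+RvE1 4). In BCP+MSC+Treg 2 they were at 1710 CPM, below the 1893 CPM of BCP+MSC+Treg 3. Blood genes in the 4 mice, in the order first given, summed to 772, 422, 596 and 819 CPM. These mice were picked for their B cell levels, so the values are a description.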
